A study of Mus musculus with 11 samples.

Results

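The endoplasmic reticulum (ER) folding and stress genes are 35 genes picked by name for what their proteins do, not by any value in these data, out of the 49997 gene symbols listed for each cell type. They cover 11 chaperones and cofactors, 4 disulfide enzymes, 3 genes of protein translocation, 6 of ER-associated degradation, 4 stress sensors, 3 stress transcription factors and 4 targets of the integrated stress response. All 35 were found for both L cells and enterochromaffin (EC) cells. Secreted proteins enter the ER as unfolded chains, are folded there with the help of chaperones and disulfide enzymes, and are passed to the cytosol for destruction when folding fails. When folding falls behind, the sensors IRE1, PERK and ATF6 start the unfolded protein response, which slows translation and switches on chaperone and degradation genes through XBP1, ATF6, ATF4 and CHOP. Cells that secrete mucus, antibody or hormone use this system heavily, and IRE1 beta, encoded by Ern2, is known mainly from mucus-producing epithelium.

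RNA came from colon cells of ovariectomised C57BL/6 female mice aged 10 to 14 weeks, so every group, controls included, lacked ovaries. The treated mice received EB, the estradiol ester estradiol benzoate, and the controls its vehicle, sesame oil. L cells, which secrete peptide YY and glucagon-like peptides, were taken 4 hours after treatment from Cck-Cre;R26LSL-tdTomato mice, in which cells that have expressed Cck, a gene of several gut hormone cell types, carry a red label. They gave 2 vehicle and 3 EB libraries, with about 7000 cells collected for each treatment. EC cells, which secrete serotonin, came from the ECFLTG line and gave 2 vehicle and 4 EB libraries of 500 or more cells each; their time after treatment is not stated separately. Whether each library had its own mouse is not stated; if not, the p-values below describe technical spread alone.

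The L-cell libraries held 27658579 to 31449447 counted reads and the EC-cell libraries 4955808 to 10640921. None of the 10 L-cell markers was at 0 throughout the L-cell libraries and none of the 10 EC-cell markers throughout the EC-cell libraries. In the L-cell libraries, though, L-cell markers made up only 0.0194% to 0.323% of the reads and 12 absorptive colonocyte markers 5.52% to 9.04%. The same L-cell markers took 0.130% to 1.89% in the EC-cell libraries, so their share did not set the L-cell libraries apart. EC-cell markers took 7.41% and 8.89% of reads in the EC vehicle libraries and 0.821%, 1.12%, 4.76% and 12.4% in EC EB libraries 1 to 4. EB libraries 1 and 2 thus stood apart: both were below the other 4 EC-cell libraries for 9 of the 10 EC-cell markers and above them for 10 of the 12 colonocyte markers. L vehicle library 2 stood apart for the summed share of 8 stromal cell markers, at 0.0278% of reads against 0.000495% to 0.00193% in the other L-cell libraries. Most of this came from Col1a1, Col1a2, Col3a1 and Dcn, while Vim was higher in L EB library 3, at 481 against 267 normalised counts. The names L cells and EC cells below stand for these libraries. For the ER genes, values without EC EB libraries 1 and 2, or without L vehicle library 2, are added where they turn the sign or differ by over 1.5 times. In such bulk samples, fewer cells of a type and less RNA per cell cannot be told apart.

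Many of the genes carry known response elements near their start, and some of the stretches that hold them are shown. Of the element groups, only that of ER stress response element I is used again below to group values. The RefSeq promoter windows of GRCm38.p6, from 250 bases before to 50 bases after the start, were available for 29 of the 35 genes; Atf6, Derl1, Ern2, Hyou1, Manf and Sec61a1 were not matched. The ER stress response element I was searched on both strands as CCAAT, any 9 bases, then CCACG. It was found in 9 of the 29 genes (31.0%), namely Calr, Canx, Creld2, Derl3, Dnajc3, Hsp90b1, Hspa5, Pdia6 and Syvn1, against 37 of all 27025 genes with a window (0.137%). Of these stretches 4 follow, 5′ to 3′ on the gene's strand, with the element in capitals; Hsp90b1 holds it in both orientations.
Hspa5 (chr2:34772017-34772051, plus strand): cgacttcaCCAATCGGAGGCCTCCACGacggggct
Dnajc3 (chr14:118937819-118937853, plus strand): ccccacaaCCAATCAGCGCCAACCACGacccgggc
Calr (chr8:84847067-84847101, minus strand): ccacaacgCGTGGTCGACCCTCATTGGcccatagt
Hsp90b1 (chr10:86705525-86705664, minus strand): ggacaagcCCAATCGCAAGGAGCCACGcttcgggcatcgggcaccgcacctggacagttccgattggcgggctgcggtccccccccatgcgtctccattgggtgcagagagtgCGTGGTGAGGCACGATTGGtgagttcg

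The ER stress response element II, ATTGG, any 1 base, then CCACG, was found in Dnajb11 and Herpud1, 2 of the 29 genes (6.90%), against 12 of all genes (0.0444%). The element bound by ATF4 with CHOP or related partners, searched as TGATGNAA, was found in Asns, Chac1, Herpud1 and Trib3, 4 of 29 (13.8%) against 4.51% of all genes. The XBP1 element TGACGTGG was in none of the 29 windows and in 0.714% of all genes, and the cAMP response element core TGACGTCA, which shares its opening letters, was in Ppp1r15a only, against 2.03% of all genes. Herpud1 is shown because it alone held both an ER stress element and an ATF4 element, and Asns, Chac1, Trib3 and Ppp1r15a because they are the targets of the integrated stress response in the set. The capitals again mark the elements, no printed match shared bases with another, and a match is only a string of letters, not a tested site.
Herpud1 (chr8:94386309-94386395, plus strand): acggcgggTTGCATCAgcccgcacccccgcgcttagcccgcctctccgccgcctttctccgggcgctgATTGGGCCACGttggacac
Asns (chr6:7693217-7693240, minus strand): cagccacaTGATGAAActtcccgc
Chac1 (chr2:119351041-119351064, plus strand): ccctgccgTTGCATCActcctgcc
Trib3 (chr2:152344031-152344054, minus strand): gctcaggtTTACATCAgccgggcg
Ppp1r15a (chr7:45526265-45526288, minus strand): ctctccggTGACGTCAgcacagcg

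The folding genes were among the more abundant transcripts of both cell types. Levels between genes are compared as RPKM, the reads of a gene scaled by its exon length and by the reads counted in the library. In L cells P4hb, which encodes protein disulfide isomerase, was the most abundant, with a median level of 369 (range 324 to 463 over 5 libraries). Pdia3, the disulfide isomerase that works with the lectin chaperones, followed at 196 (166 to 266) and Hspa5, the central chaperone BiP, at 178 (157 to 233), so the ranges of Pdia3 and Hspa5 overlapped. In EC cells the median levels were 219 for P4hb (135 to 313 over 6 libraries), 209 for Pdia3 (49.0 to 322), 167 for Sec61b (142 to 220), 148 for the lectin chaperone Calr (96.3 to 164), 139.5 for Hsp90b1 (70.3 to 181) and 124 for Hspa5 (53.1 to 232), and these ranges overlapped. By mean level over all libraries, 4 of the 35 genes were at 100 or more in L cells and 6 in EC cells. Among the genes tested, those that reached 10 normalised counts in 2 libraries, 17 of 34 of the ER genes in L cells and 15 of 33 in EC cells lay above the 90th percentile of level.

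Most of the sensors were much less abundant than the chaperones. In L cells Ern1, which encodes the widely expressed IRE1 alpha, had a median level of 1.79 (1.41 to 2.27) and Eif2ak3, which encodes PERK, one of 1.95 (1.38 to 3.17). Atf6 was at 4.41 (3.67 to 4.82), while Ern2 was at 32.2 (19.4 to 85.3), above Ern1 in each of the 5 libraries. In EC cells Ern1 was at 1.88 (0.469 to 3.39) and Eif2ak3 at 1.78 (0.445 to 10.4), against 24.0 (0.678 to 30.2) for Atf6. Ern2 was at 6.89 there but ran from 0.136 to 25.1. The least abundant genes were Derl3, a degradation factor known from secretory cells such as those of the pancreas, and the stress-induced Trib3 and Chac1, each with a median under 1 in both cell types. Across all 35 genes the order of mean levels was similar in the 2 cell types (Spearman rho 0.908, 35 genes), a description only, since the genes share their length and library protocol in both sets.

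**Figure D1:**
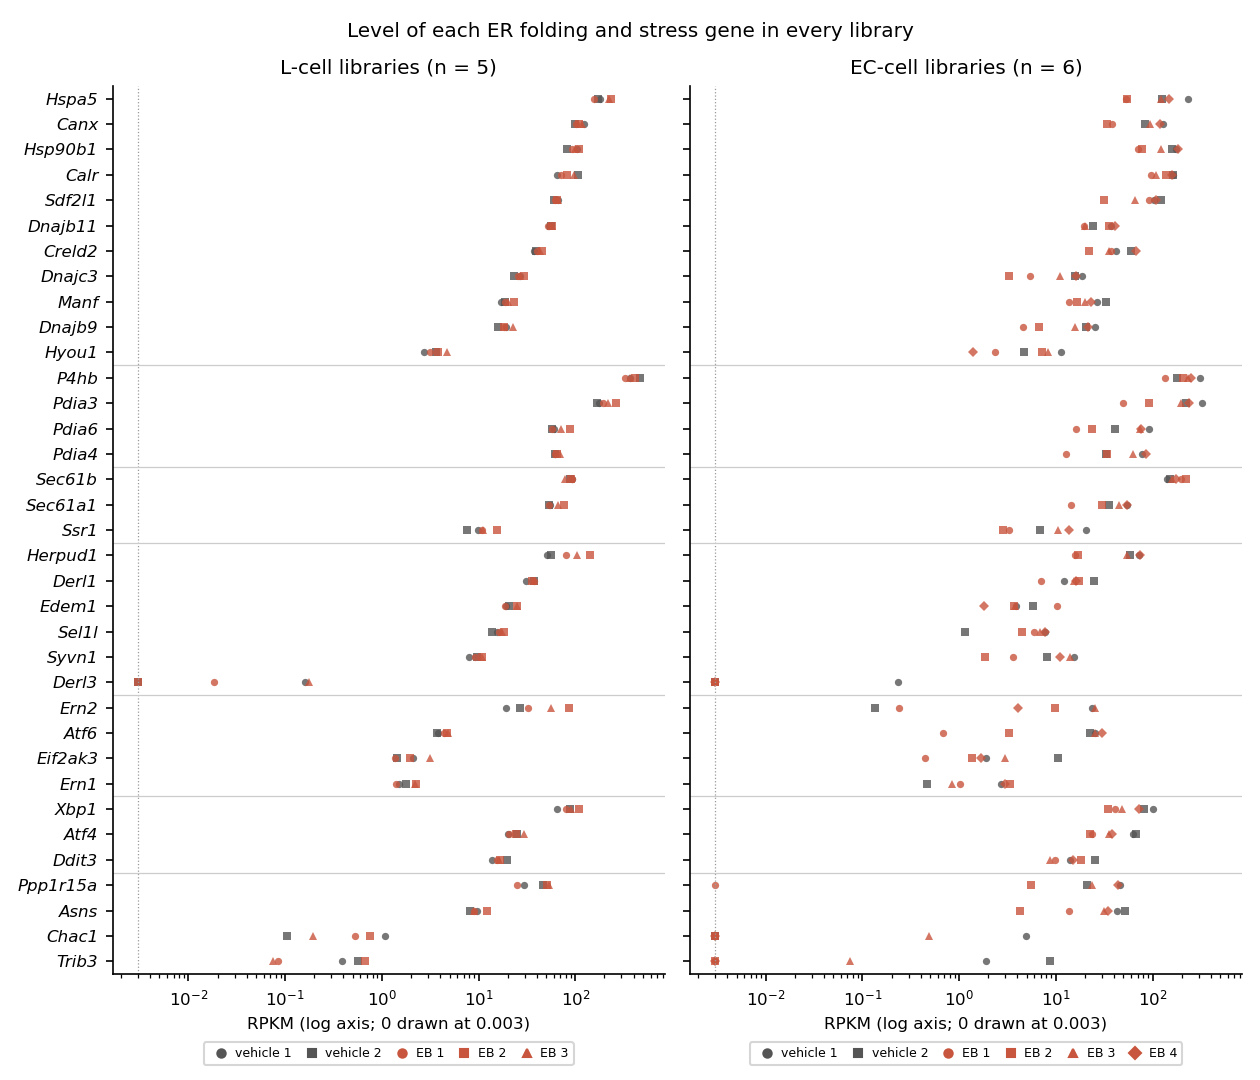
Level of each ER folding and stress gene in each library, in RPKM on a log axis, with L-cell libraries on the left (n = 5) and EC-cell libraries on the right (n = 6). Grey marks are vehicle and red marks EB libraries, shapes give the replicate number, horizontal lines separate the role groups and values of 0 stand on the dotted line. The L-cell marks lie close together for most genes, while EC EB libraries 1 and 2 lie at the low end for many.

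The L-cell comparison asked which ER genes differed between EB and vehicle. No gene of the set passed the test, limma with Benjamini-Hochberg adjustment over all 16217 genes tested, at an adjusted p under 0.05; over all genes 4 passed (0.0247%). Of the 34 ER genes tested, 20 had a log2 fold change above 0 and 14 below it, against 49.7% and 50.3% of all genes; with quantile normalisation 25 lay above 0. Their median log2 fold change was 0.03, against -0.00217 for all genes, and 27 of the 34 lay within 0.2 of 0 in either direction. Without vehicle library 2, 21 of the 34 lay above 0 and their median was 0.13. Herpud1 and Ern2, 2 of the 34, had an unadjusted p under 0.05, both with higher values after EB, against 7.34% of all genes higher and 4.22% lower (11.6% in either direction). The groups did not overlap for 4 genes with EB higher (Herpud1, Ern2, Pdia3 and Atf6) and 2 with EB lower (Sec61b and Sdf2l1), against 14.3% and 14% of all genes, or 28.3% in either direction. Derl3 was under the filter, at normalised counts of 9.57 and 0 in the vehicle and 1.01, 0 and 9.94 in the EB libraries.

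Herpud1 encodes an ER membrane protein of the degradation complex and is a known target of the unfolded protein response. Its normalised counts were 3571 and 4251 in the vehicle libraries and 5237, 9424 and 6798 in the EB libraries. All 3 EB libraries were above both vehicle libraries, with the largest gap in EB library 2. The log2 fold change on log2(value + 1) was 0.83 ± 0.24 (SE), with an unadjusted p of 0.00784 and an adjusted p of 0.255 by limma. DESeq2 on the recovered reads put it past the threshold, at an adjusted p of 0.0301, in a fit that called 522 genes in all against 4 by limma; over all alternatives its adjusted p ran from 0.0301 to 0.648.

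Ern2 had the next smallest p. Its normalised counts were 1730 and 2607 in the vehicle libraries and 2653, 7205 and 4739 in the EB libraries. The groups did not overlap, but EB library 1 was barely above the higher vehicle library. The log2 fold change was 1.08 ± 0.38 (SE), with an unadjusted p of 0.0223 and an adjusted p of 0.341 by limma, and an adjusted p of 0.0497 by DESeq2. Over all alternatives its adjusted p ran from 0.0497 to 0.719. Markers of other secretory cells moved with both genes, and so did several other marker lists. The 12 goblet cell markers, all of which had a higher mean after EB, took 0.636% and 1.26% of reads in the vehicle and 1.26%, 2.57% and 1.98% in the EB libraries. The 5 deep crypt secretory cell markers, which share Retnlb with the goblet list, took 0.147% and 0.326% against 0.378%, 1.06% and 0.714%. Herpud1, Ern2 and Pdia3 were the 3 of 34 ER genes whose 5 libraries stood in the same order as the goblet share. How many of all genes stood in that order was not counted, and the part of these markers in the values was not tested. The mean was also higher after EB for all 10 L-cell, all 8 cycling cell and all 8 stem and progenitor markers. The same held for 9 of 10 EC-cell, 8 of 10 immune cell and 5 of 7 neuron and glia markers. Among the stem markers, Olfm4 was at 1.01 normalised counts in EB library 1 and at 0 in the other L-cell libraries. All EB libraries were above all vehicle libraries for 8, 7, 5, 4, 1 and 4 markers of these lists, in the order given. This held for 3 of the 12 goblet markers, 2 of the 5 deep crypt secretory markers and 14.3% of all genes. Colonocyte markers ran the other way, at 9.04% and 7.42% against 5.75%, 5.94% and 5.52%, as did the means of 7 of 8 stromal and 4 of 5 endothelial markers. The 10 L-cell markers took 0.0511% and 0.0194% against 0.0683%, 0.201% and 0.323%. The 9 plasma cell markers took 1.71e-05% to 0.000126% of reads, with Igkc, Ighm and Ighg1 at 0 in all L-cell libraries.

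The chaperones differed little between the L-cell groups. Hspa5 was at 22649 and 23613 normalised counts in the vehicle and 18498, 28022 and 26661 in the EB libraries. Its groups overlapped, because EB library 1 was the lowest of the 5 and the other 2 EB libraries the highest, and its log2 fold change was 0.05 ± 0.19 (SE, 95% interval -0.39 to 0.50). Hsp90b1, the ER form of HSP90, was at 12514 and 10772 against 10306, 12644 and 11333, a log2 fold change of -0.03 ± 0.14. Part of its exons, 10.3% of their length, overlaps 1810014B01Rik on the opposite strand, which had a mean of 49.5 normalised counts in L cells. For Manf, 4.14% of the exon length overlaps Dcaf1 on the opposite strand, which had a mean of 887. The libraries carry no stated strand. The J-domain cochaperones Dnajb9, Dnajb11 and Dnajc3 had log2 fold changes of 0.01, -0.14 and -0.03. The lectin chaperones Calr and Canx, which hold glycoproteins during folding, had values of -0.16 and -0.16; without vehicle library 2, in which it was highest, Calr was at 0.27. Hyou1, an exchange factor of BiP, Manf and Creld2, both secreted factors induced by ER stress, had values of 0.14, 0.04 and 0.01 (0.40, 0.18 and 0.11 without vehicle library 2), and Sdf2l1, a partner of Dnajb11, one of -0.12. The 8 tested genes with ER stress response element I lay between -0.16 and 0.13, with 4 above and 4 below 0, and between -0.25 and 0.28 without vehicle library 2. Without that library Hspa5 was at 0.08, Hsp90b1 at -0.14, Canx at -0.25, Dnajb9 at -0.07, Dnajb11 at -0.03 and Dnajc3 at -0.06.

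Among the disulfide enzymes, P4hb was at 31801 and 43346 in the vehicle and 25740, 33718 and 29467 in the EB libraries. The groups overlapped, with a log2 fold change of -0.33 ± 0.18 (SE). It was highest in vehicle library 2, the one with the stromal markers, and without that library the value was -0.11; the part of the stromal cells was not tested. Pdia3 was at 16448 and 17034 against 17061, 23752 and 19503. Its EB libraries were all above the vehicle libraries, EB 1 narrowly, and its log2 fold change was 0.25 ± 0.16. Pdia4 and Pdia6 had log2 fold changes of -0.08 and 0.13, and Pdia4 one of -0.03 without vehicle library 2.

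In the translocation group, Sec61b, a small subunit of the translocon, was at 3520 and 3692 normalised counts in the vehicle and 3247, 3234 and 2836 in the EB libraries. All 3 EB libraries were below both vehicle libraries, with a log2 fold change of -0.22 ± 0.13 (SE) and an adjusted p of 0.572 by limma. Ssr1, a subunit of the translocon-associated protein complex, was at 3122 and 2616 against 3117, 4579 and 3246, with overlapping groups and a log2 fold change of 0.33 ± 0.19, or 0.20 without vehicle library 2. Sec61a1, which forms the pore, had a log2 fold change of 0.10. Beside Herpud1, the degradation genes Sel1l and Syvn1, the adaptor and the ubiquitin ligase of the main degradation complex, Edem1, a mannose-trimming factor, and Derl1, a membrane channel component, lay between -0.04 and 0.08. Without vehicle library 2, Sel1l was at 0.05, Syvn1 at 0.28, Edem1 at 0.16 and Derl1 at 0.16.

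The remaining L-cell sensors and stress factors had small differences. Atf6 was at 1055 and 1110 in the vehicle and 1133, 1245 and 1259 in the EB libraries. These groups were separate by a narrow margin, with a log2 fold change of 0.16 ± 0.14 (SE) and an unadjusted p of 0.295. Ern1 was at 368 and 479 against 319.6, 529 and 510.4, and Eif2ak3 at 381 and 282 against 231, 335 and 540.3, with log2 fold changes of 0.07 ± 0.27 and 0.08 ± 0.35. Both sets of groups overlapped, and without vehicle library 2 the values were 0.26 and -0.13.

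Xbp1, whose mRNA is spliced by IRE1, was at 6262 and 9446 in the vehicle and 7290.5, 10099 and 8299 in the EB libraries, a log2 fold change of 0.14 ± 0.21 (SE). Counts per gene do not show splicing. Atf4, translated more when PERK is active, was at 1429 and 1932 against 1339.9, 1631 and 1953, a log2 fold change of -0.03 ± 0.21. Ddit3, which encodes CHOP, was at 717 and 1101 against 737, 821 and 786, a log2 fold change of -0.19 ± 0.21. The groups of all 3 transcription factors overlapped, and so did those of their targets. Trib3, a pseudokinase induced by ATF4 and CHOP, was at 24.5 and 39.2 against 5.03, 40.8 and 4.52, so EB library 2 matched the vehicle libraries and the other 2 were lower, a log2 fold change of -1.52 ± 0.98. Ppp1r15a, which encodes the phosphatase subunit GADD34, Asns, the asparagine synthetase, and Chac1, a glutathione-degrading enzyme, had values of -0.03, 0.00 and 0.15. Few reads stood behind 2 of these targets, 5 to 45 per library for Trib3 and 5 to 50 for Chac1. Without vehicle library 2 the values were 0.44 for Xbp1, 0.18 for Atf4, 0.12 for Ddit3, 0.36 for Ppp1r15a, -0.05 for Asns and -1.37 for Chac1, so the signs of Atf4, Ddit3, Ppp1r15a, Asns and Chac1 turned.

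In L cells the EB libraries 1 and 2 stood at opposite ends for many of these genes. EB library 2 was the highest of the 5 for 17 of the 34 genes, against 21.3% of all genes, and EB library 1 the lowest for 18, against 16.7%. The 35 genes together took 0.608% and 0.637% of reads in the vehicle and 0.598%, 0.788% and 0.715% in the EB libraries. The ratio of the highest to the lowest library had a median of 1.45 over the ER genes and 1.78 over all genes.

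**Figure D2:**
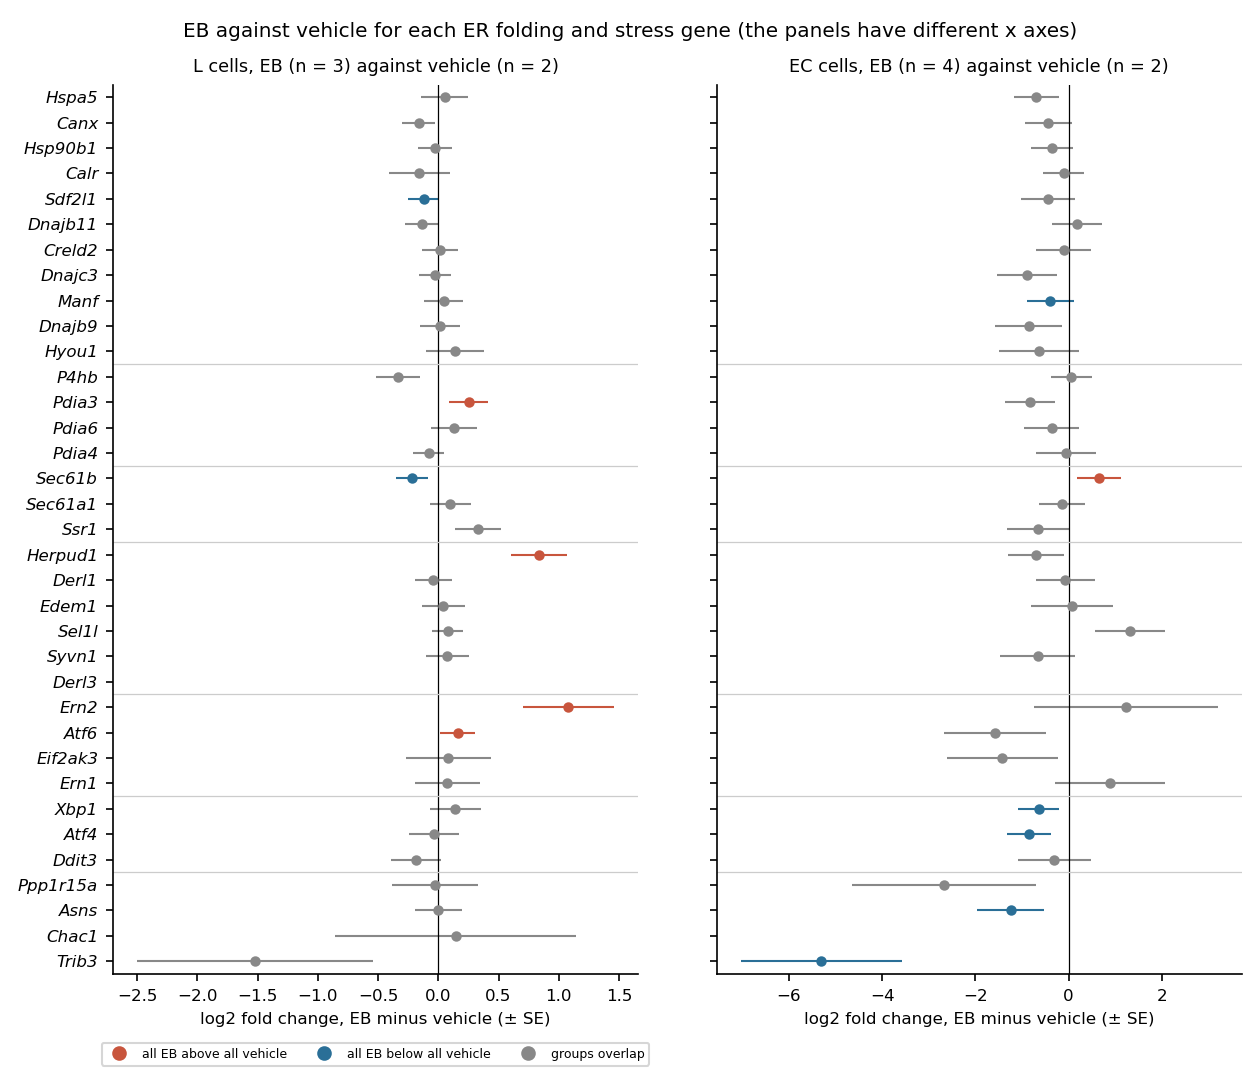
Log2 fold change of each ER gene, EB minus vehicle, with its standard error, in L cells on the left (2 vehicle and 3 EB libraries) and EC cells on the right (2 vehicle and 4 EB libraries); the x axes differ. Red marks genes whose EB libraries were all above the vehicle libraries, blue those all below and grey those that overlapped. Herpud1 and Ern2 stand out to the right in L cells, while 26 of 33 genes lie left of 0 in EC cells.

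The same question in EC cells gave mostly lower values after EB, with a much wider spread. No ER gene passed the limma test, and neither did any of the 15287 genes tested (0%); 542 genes had an unadjusted p under 0.05 (3.55%), edgeR called 0 and DESeq2 called 15, none of them an ER gene. Of the 33 ER genes tested, 26 had a log2 fold change below 0 and 7 above it, against 52.5% and 47.5% of all genes, and their median was -0.43 against -0.07. Trib3 was the 1 gene with an unadjusted p under 0.05, with lower values after EB, against 1.11% of all genes lower and 2.43% higher. The groups did not overlap for Sec61b with EB higher and for Trib3, Atf4, Asns, Xbp1 and Manf with EB lower, against 4.98% and 6.3% of all genes, or 11.3% in either direction. Without EB libraries 1 and 2, 15 of the 33 genes lay above 0, the median was -0.06 against 0.06 for all genes, and 12 genes changed sign. In those 2 libraries 14 of the 33 genes were below all 4 other EC-cell libraries, against 16.5% of all genes.

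The 35 genes together took 0.807% and 0.583% of reads in the EC vehicle libraries and 0.275%, 0.348%, 0.557% and 0.690% in EB libraries 1 to 4. EB libraries 1 and 2 were the lowest of the 6, as they were for the EC-cell markers, and their colonocyte share was 2.60% and 2.63% against 0.222% to 0.848% in the others. The part of the cell mixture in the values was not tested. Plasma cell markers were near 0 here too, at 1.78e-05% to 0.000158% of reads.

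**Figure D3:**
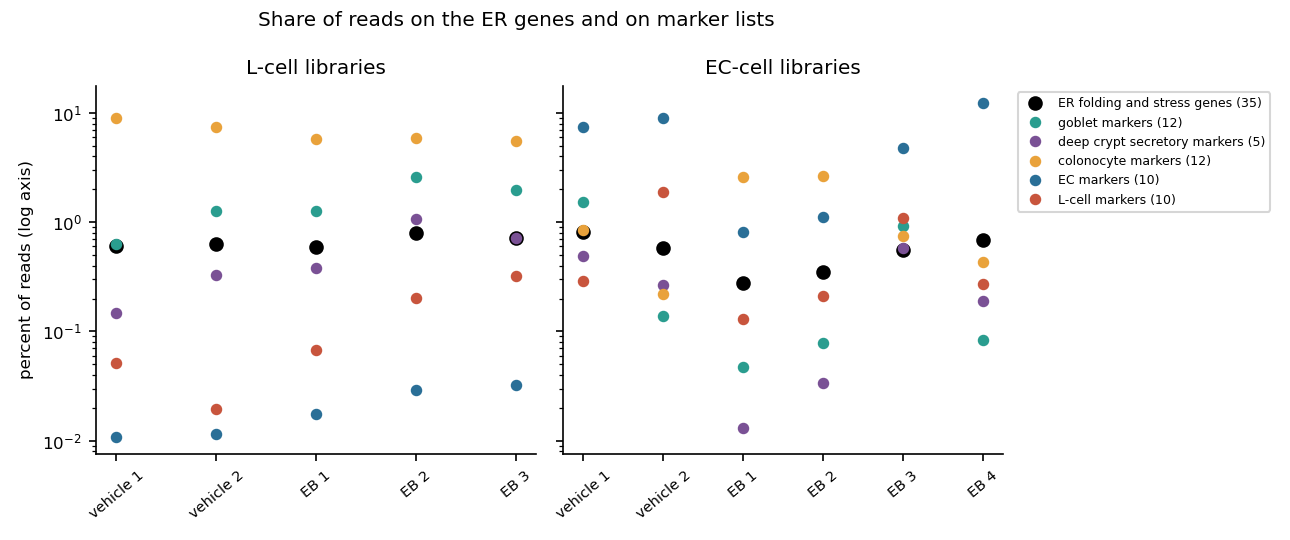
Percent of reads, on a log axis, taken in each library by the 35 ER genes (black) and by the goblet, deep crypt secretory, colonocyte, EC-cell and L-cell marker lists, with list sizes in the key. In EC EB libraries 1 and 2 the ER genes stand at 0.275% and 0.348%, the EC-cell markers at 0.821% and 1.12% and the colonocyte markers at 2.60% and 2.63%.

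Trib3 had the largest difference in EC cells. Its normalised counts were 19.9 and 101 in the vehicle libraries and 0, 0, 0.864 and 0 in EB libraries 1 to 4. These rest on 43 and 92 reads in the vehicle and a single read in all 4 EB libraries, so every EB library was below both vehicle libraries. The vehicle level over the EB level was 171 with an exact 95% interval of 30.2 to 6807, which covers counting error only. The fitted log2 fold change was -5.31 ± 1.73 (SE), with an unadjusted p of 0.00933 and an adjusted p of 0.905 by limma. The vehicle libraries also lay well apart from each other, and the fitted size depends on the pseudocount.

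Atf4 is a transcription factor known to drive Trib3 and Asns. It was at 737 and 859 normalised counts in the vehicle and 438, 388, 458 and 483 in the EB libraries, all 4 below both vehicle libraries. The log2 fold change was -0.85 ± 0.48 (SE, 95% interval -1.89 to 0.19), with an adjusted p of 0.905 by limma, and -0.76 without EB libraries 1 and 2. Asns was at 574.5 and 778.5 against 295, 86.0, 474 and 518, again all below, with a log2 fold change of -1.25 ± 0.72. Without EB libraries 1 and 2 the Asns value was -0.43. Ddit3, at 119 and 238 against 132, 227, 81.2 and 142, overlapped and had a value of -0.30 ± 0.79, or -0.65 without EB libraries 1 and 2.

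Ppp1r15a had a large but inconstant difference. It was at 670 and 339 in the vehicle and 0, 119, 377 and 702 in the EB libraries, so that the lowest and the highest values were both EB. Its log2 fold change was -2.67 ± 1.97 (SE), and 0.11 without EB libraries 1 and 2. Chac1 was under the filter, at 39.4 in vehicle library 1, 4.32 in EB library 3 and 0 in the other 4. Derl3 was also under it, with 5 reads in vehicle library 1 and none elsewhere.

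Xbp1 was at 1626 and 1464 in the vehicle and 1043, 830.1, 856 and 1286 in the EB libraries. All 4 EB libraries were below both vehicle libraries, with a log2 fold change of -0.64 ± 0.44 (SE), and -0.56 without EB libraries 1 and 2. The sensor Atf6 was split instead. It was at 1147 and 1146 in the vehicle, at 49.1 and 224 in EB libraries 1 and 2 and at 1277 and 1517 in EB libraries 3 and 4. Its log2 fold change was -1.58 ± 1.09, and 0.28 without EB libraries 1 and 2.

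The other sensors varied as much within the groups as between them. Ern1 was at 110 and 21.0 against 66.0, 203, 38.0 and 133, a log2 fold change of 0.90 ± 1.18 (SE). Eif2ak3 was at 56.0 and 343 against 21.1, 59.9, 97.7 and 55.2, a value of -1.42 ± 1.18. Ern2 was at 347 and 2.21 against 5.62, 211, 407 and 65.6, so both groups held a library with almost none, and its value was 1.23 ± 1.97. Without EB libraries 1 and 2 the values were 0.55 for Ern1, -0.91 for Eif2ak3 and 2.30 for Ern2. The goblet marker share of the same libraries was 1.54% and 0.140% against 0.0471%, 0.0779%, 0.918% and 0.0833%, highest in the 2 libraries where Ern2 was highest; its part in the Ern2 values was not tested.

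Of the 11 EC-cell chaperones and cofactors, 10 had a log2 fold change below 0 and none an unadjusted p under 0.05. Hspa5 was at 4841.5 and 2899 in the vehicle and 1763, 1686, 2853 and 3431 in the EB libraries, a log2 fold change of -0.69 ± 0.48 (SE), and -0.26 without EB libraries 1 and 2. Hsp90b1 was at 3483 and 3464 against 2225, 2279, 2682 and 3977, a value of -0.36 ± 0.45, or -0.09 without EB libraries 1 and 2. Both sets of groups overlapped. The 8 tested genes with ER stress response element I all lay below 0, between -0.88 and -0.11; without EB libraries 1 and 2, Canx, Creld2, Pdia6 and Syvn1 lay above 0. Manf was at 458 and 633 against 379, 427, 386 and 448, all EB below, with a value of -0.39 ± 0.50. Dnajb11, the 1 chaperone gene above 0, had a value of 0.17. Without EB libraries 1 and 2 it was at -0.01, while Canx was at 0.11 and Creld2 at 0.04. Dnajb9 and Dnajc3 were at -0.86 and -0.88 with all libraries and at -0.22 and -0.29 without those 2. Calr and Hyou1 were at -0.11 and -0.64 with all libraries and at -0.26 and -1.02 without those 2.

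Among the EC-cell disulfide enzymes, Pdia3 and Pdia6 were lowest in EB libraries 1 and 2. Pdia3 was at 4977 and 3794 against 1207, 2123, 3370.3 and 4101, with overlapping groups and a log2 fold change of -0.83 ± 0.54 (SE), or -0.23 without EB libraries 1 and 2. P4hb, Pdia4 and Pdia6 had values of 0.06, -0.06 and -0.37, and of 0.08, 0.61 and 0.37 without EB libraries 1 and 2. In the degradation group, Herpud1 was at 828 and 738 against 286, 289, 691 and 939.9. Its log2 fold change was -0.70 ± 0.60, and 0.04 without EB libraries 1 and 2. Sel1l was at 327 and 54.0 against 394, 279, 317 and 357, where vehicle library 2 alone was low, a value of 1.32 ± 0.74. Left with vehicle library 1 alone, the value was 0.03. Syvn1, Edem1 and Derl1 had values of -0.66, 0.07 and -0.08, and of 0.23, -0.77 and -0.06 without EB libraries 1 and 2.

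Sec61b was the only ER gene of the EC-cell libraries with every EB library above every vehicle library. It was at 891 and 1043 in the vehicle and 1943, 2054, 1090 and 1219 in the EB libraries. The log2 fold change was 0.65 ± 0.47 (SE), with an adjusted p of 0.905 by limma, and 0.26 without EB libraries 1 and 2, where it was highest. It was also the 1 ER gene of 33 above all 4 other libraries in that pair, against 15.5% of all genes. Sec61a1 and Ssr1, its neighbours in the translocon, had values of -0.14 and -0.66, and of 0.24 and 0.09 without EB libraries 1 and 2.

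**Figure D4:**
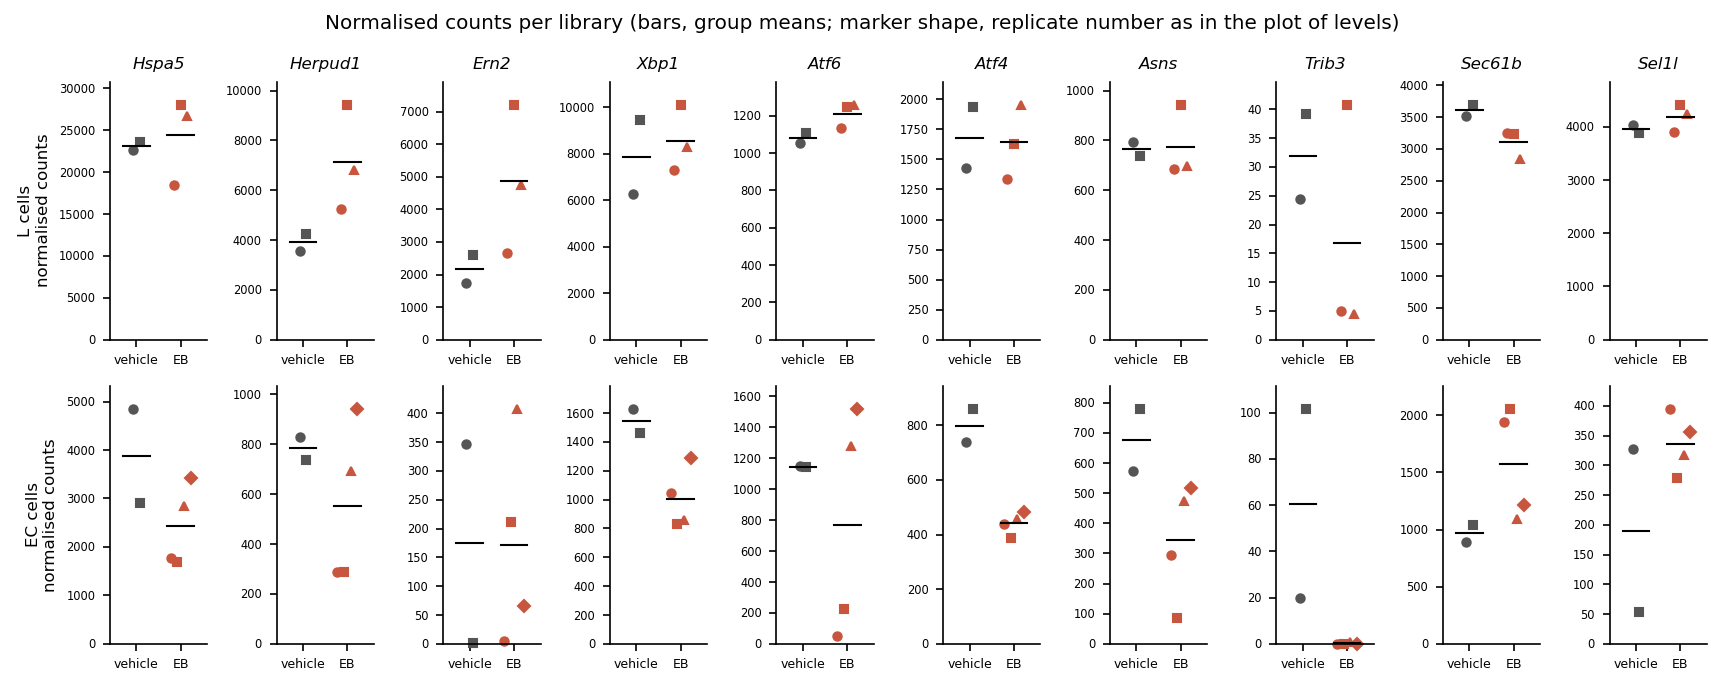
Normalised counts of 10 ER genes in each library, L cells above and EC cells below, with bars at the group means, grey marks for vehicle and red for EB, and a separate linear axis from 0 for each panel. Herpud1 and Ern2 are higher in the L-cell EB libraries, Atf4 and Trib3 lower in the EC-cell EB libraries, and Atf6 is low in EC EB libraries 1 and 2 alone.

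Whether the differences between EB and vehicle were themselves unlike in the 2 cell types was tested as a contrast of the differences within each table, over all 11 libraries. The fit gave each gene 1 spread for both cell types, although the median SE of the ER genes was 0.182 in L cells and 0.631 in EC cells. For Trib3 the SE of the difference was 1.70, below the 1.73 of EC cells alone, so its SE and p-value may be too small. Atf6 went the other way, with an SE of 1.57 against the 1.09 of EC cells and the 0.14 of L cells. The SEs and p-values here may thus be too small for some genes and too large for others. None of the 33 ER genes tested in both passed, and none of the 13802 genes (0%); 630 genes had an unadjusted p under 0.05 (4.56%), edgeR called 0 and DESeq2 32. Trib3 was the 1 ER gene with an unadjusted p under 0.05, with an EC change below the L change, against 2.38% of all genes that way and 2.18% the other. Its difference was -3.79 ± 1.70 (SE, unadjusted p 0.0473). Herpud1 followed at -1.53 ± 0.71 (unadjusted p 0.0547), from 0.83 in L cells and -0.70 in EC cells, and Sec61b at 0.87 ± 0.46 (unadjusted p 0.0873), from -0.22 and 0.65. All 3 had an adjusted p of 0.862 by limma. Without EC EB libraries 1 and 2 the differences were -3.56 for Trib3, -0.79 for Herpud1 and 0.48 for Sec61b. The median over the 33 genes was -0.44 with all libraries, against -0.09 for all genes, and -0.10 without those 2, where 9 of the 33 changed sign. Sel1l passed only when EC vehicle library 1 was left out, at 2.53 with an adjusted p of 0.0236, which rests on vehicle library 2 alone; over all alternatives its adjusted p ran from 0.0236 to 0.9998. Of the 33 genes, 15 were above 0 in L cells and below it in EC cells, 3 the reverse, 4 above in both and 11 below in both; without EC EB libraries 1 and 2 these counts were 9, 5, 10 and 9. With all libraries the 33 pairs of log2 fold changes had a Spearman rho of -0.145.

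Other genes of the same pathways were counted from lists of 190 further genes. In L cells 168 were tested, of which 78 had a log2 fold change above 0 and 90 below, none passed, and 12 higher (7.14%) and 3 lower (1.79%) had an unadjusted p under 0.05, against 7.34% and 4.22% of all genes. The smallest p belonged to Tmx4, a membrane thioredoxin, at 171 and 77.3 normalised counts in the vehicle and 357, 359 and 401 in the EB libraries, with a log2 fold change of 1.68 and an adjusted p of 0.185 by limma. Creb3l4, a membrane-bound transcription factor related to ATF6, was at 870.1 and 959 against 977, 3330.4 and 2058, a log2 fold change of 1.04. Its EB libraries stood in the order seen for Ern2 and Herpud1. Cth, a cysteine-forming enzyme among the ATF4 targets, was at 3867 and 5148 against 3221, 2299 and 2371.5, all EB lower, a log2 fold change of -0.78, and Psat1, of serine synthesis, was at 18.1 and 4.48 against 39.2, 48.0 and 39.8. These 2 targets of ATF4 had log2 fold changes of opposite sign, with adjusted p of 0.234 and 0.306 by limma.

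In EC cells 165 of the further genes were tested, of which 56 lay above 0 and 109 below, none passed, and 2 higher (1.21%) and 5 lower (3.03%) had an unadjusted p under 0.05, against 2.43% and 1.11% of all genes, of which 52.5% lay below 0. Without EB libraries 1 and 2, 73 lay above 0 and 92 below, and 3 higher and 2 lower had an unadjusted p under 0.05. Mthfd2, a mitochondrial folate enzyme induced by ATF4, was at 250.9 and 341 against 68.8, 54.7, 121 and 33.6, so all EB libraries were lower, with a log2 fold change of -2.20. Wfs1, an ER membrane protein that is also a stress target, was at 187 and 363 against 33.7, 16.9, 78.6 and 103, all lower too, with a value of -2.46, or -1.52 without EB libraries 1 and 2. Nars, an asparaginyl-tRNA synthetase, was at 624 and 81.6 against 526, 1130, 693 and 993.5, with overlapping groups and a value of 1.82. All 3 had an adjusted p of 0.905 by limma. Tmx4, higher with EB in L cells, was at 346 and 481 against 70.2, 23.5, 339.6 and 91.2 in EC cells, a log2 fold change of -2.25 that did not pass either, or -1.21 without EB libraries 1 and 2.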

How the data were processed

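Full-length cDNA was made from polyA RNA with a SMART-Seq kit and tagmented, per the labels' protocols. The build mm10 and the tools STAR, featureCounts and DESeq2 come from the submitters' processing notes, which give no versions. What the authors deposited is a signal per gene, namely normalised counts, in 1 table for each cell type, normalised separately; per the values, 100% of entries are whole reads divided by a size factor (tolerance 0.001 of a read), so reads were recovered. Nothing in the labels states a strand.

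Genes that reached 10 normalised counts in 2 libraries were tested on log2(value + 1) with trended limma 3.58.1 (R 4.3.3), a scale that understates changes of low genes; p-values were adjusted by Benjamini-Hochberg over all genes tested. The method was tested on simulated data with independent libraries, large changes and no shift in cell mixture. That test does not cover small changes or mixed libraries. Levels used exon lengths from GENCODE (GRCm38, the assembly of mm10), and levels of the 2 tables were not tested against each other. Alternatives were pseudocounts of 0.5 and 4, no filter, quantile normalisation, TMM factors, the count models of DESeq2 1.42.0 and edgeR 4.0.16 on the reads, a replicate block, and libraries left out. Genes given by library were the main sensors and effectors, the 6 smallest p and 4 largest changes in each cell type, the 3 smallest p of the difference, and up to 2 per further pathway list; the further genes printed were picked from these after their values were seen, as were Manf, Sdf2l1, Chac1 and Derl3. The members were picked by function and not by value, but members, lists and tests were all chosen with earlier results of these data known. Intervals on reads cover counting error only.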

Additional observations from a re-analysis of the deposited data

Results flagged for a closer look

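Among 33 groups of 4 EC-cell EB libraries checked for a library far from the rest, 1 stood apart, where chance flags about 1 in 20 groups. Trib3 in EC EB library 3 was at 0.864 normalised counts, a single read, while the other 3 EB libraries were at 0. A single read beside 3 values of 0 gives the largest possible gap by construction, so this says nothing about library 3. Sec61b had EB libraries all below vehicle in L cells and all above vehicle in EC cells; the difference of the 2 log2 fold changes was 0.872, with an adjusted p of 0.862 by limma over all genes, and 0.475 without EC EB libraries 1 and 2.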

How the results depend on the processing

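For L cells, limma called 4 genes, against 139 without the filter, 15 with quantile normalisation, 522 by DESeq2, 0 by edgeR (1849 at an unadjusted p under 0.05), 56 with a replicate block and 0 to 174 with a library left out. For EC cells it called 0, against 15 by DESeq2, 24 with a replicate block and 0 to 1 with a library left out. For the difference it called 0, against 32 by DESeq2 and 0 to 257 with a library left out. The cause was not tested. Of the ER genes, Herpud1 and Ern2 in L cells passed by DESeq2 alone, and Sel1l passed in the difference without EC vehicle replicate 1 alone. Leaving out single libraries moved Herpud1 in L cells between 0.61 and 1.04, Ern2 between 0.74 and 1.46, and Atf4 in EC cells between -0.96 and -0.74. Small changes took either sign: 14 of the 34 L-cell genes were above 0 with the block, 25 with quantile normalisation and 11 without EB replicate 2. TMM factors put the median of all genes at 0.01 in L cells, -0.09 in EC cells and -0.12 in the difference, against -0.09 for the difference in the main scaling. The replicate numbers were not taken to pair samples, since only 2 numbers are shared. With group means removed, same-numbered libraries correlated at 0.157 and 0.148 in L cells and 0.0361 and 0.00685 in EC cells. Centring on 2 vehicle libraries gives the opposite-numbered pairs the same sizes with a minus sign, so these values do not decide on pairing. The block gave 9 of 33 EC-cell ER genes an unadjusted p under 0.05 by limma and no adjusted call. With the block, EB libraries whose number no vehicle library shares drop out of the estimate. It thus set EB libraries 1 and 2 alone against the vehicle libraries, in EC cells the 2 EB libraries that stood apart. With 2 vehicle libraries per cell type and 4955808 to 10640921 reads in EC cells, a standard error of 0.631 (median of the ER genes) limits what could be called there.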
